A study of Homo sapiens with 9 samples.

Results

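The enzymes of serine, asparagine, proline and folate one-carbon synthesis described here were 10 genes chosen by name: ASNS, PHGDH, PSAT1, PSPH, SHMT1, SHMT2, MTHFD2, MTHFD1L, ALDH18A1 and PYCR1. Each name had a single entry among the 58735 genes of the deposited tables. No cut-off on a measured value was used, but earlier results of these data were known at the choice. RNA was sequenced from PaTu 8988t, an established human pancreatic tumour cell line grown in DMEM with serum, after exposure to 1 of 3 extracellular matrices. The control matrix is labelled Ctrl ECM, the wild-type matrix CPXM2WT OE ECM and the mutant matrix CPXM2R213A OE ECM, with 3 libraries each. CPXM2 is a secreted protein of the carboxypeptidase family, and the study asked how collagen aligned by it affects expression in these cells. The sources used here do not give which cells made the matrix or how long the tumour cells met it. Nothing in the labels says that replicates were separate cultures, so every p-value below measures only library-to-library spread, part of which may be technical.

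PHGDH, PSAT1 and PSPH act in series to turn a glycolytic intermediate into serine. SHMT1 in the cytosol and SHMT2 in mitochondria then move a carbon unit from serine to folate and leave glycine, and MTHFD2 and MTHFD1L carry that unit through mitochondrial folate to formate, which feeds nucleotide synthesis. ASNS makes asparagine from aspartate and glutamine, while ALDH18A1 and PYCR1 make proline, a main residue of collagen, from glutamate. Most of these genes are known targets of ATF4, the transcription factor of the amino acid response, and several are often highly expressed in tumours.

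The values were FPKM, read numbers scaled by gene length and library size, and were deposited in 2 tables with the same genes. One, called the 4-library table here, has control 1 and wild type 1 with R213A 1 and 3, and the 5-library table has R213A 2 with controls and wild types 2 and 3. The sources used here do not give what the tables stand for, and groups were compared within them. Reads recovered from the values totalled 15951927 to 18312806 per library. Of 7 epithelial markers 4 had a mean of at least 1 FPKM, namely KRT8, KRT18, EPCAM and MUC1, while KRT7, KRT19 and CDH1 did not reach it. None of 6 acinar and islet, 10 fibroblast, 6 immune and 5 endothelial markers did, and the summed fibroblast markers lay between 0.0548 and 0.925 FPKM over all libraries. PRSS1, CPA1, INS and GCG were at 0 in each library.

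The 4 promoter stretches printed next show motifs of genes whose levels are given below. In the RefSeq promoter table (GRCh38.p14, 250 bases before to 50 after a start) 7 of the 10 genes had 11 windows. PSPH, SHMT2 and PYCR1 had none. TGATGNAA, a core element bound by pairs of ATF4 and CCAAT/enhancer binding proteins, and CCAAT, the box bound by the NF-Y factor, were searched on both strands, and no match of either overlapped a match of the other in these genes. Capitals mark the matches, and each sequence is written on the strand of its gene. A match is a description of the letters and not evidence of binding.
ASNS, chr7:97872458-97872487, minus strand: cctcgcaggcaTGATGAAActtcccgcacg
MTHFD1L, chr6:150866346-150866375, plus strand: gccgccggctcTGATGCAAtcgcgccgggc
PSAT1, chr9:78296875-78297124, plus strand: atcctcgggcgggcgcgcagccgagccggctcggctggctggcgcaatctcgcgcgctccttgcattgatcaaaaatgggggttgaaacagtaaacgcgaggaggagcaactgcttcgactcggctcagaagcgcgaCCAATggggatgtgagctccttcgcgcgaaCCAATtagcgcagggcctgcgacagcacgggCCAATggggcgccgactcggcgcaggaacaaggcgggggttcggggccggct
SHMT1, chr17:18363564-18363800, minus strand: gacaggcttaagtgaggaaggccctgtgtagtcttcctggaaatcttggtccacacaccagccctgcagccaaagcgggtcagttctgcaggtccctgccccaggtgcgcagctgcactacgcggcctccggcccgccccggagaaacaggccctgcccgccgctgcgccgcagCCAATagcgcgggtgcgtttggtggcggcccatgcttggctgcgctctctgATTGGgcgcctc

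TGATGNAA was found in 3.62% of all 35116 promoter windows, and among the 7 genes in ASNS and MTHFD1L. Shares here are of windows, whereas a gene is named if any of its windows matched, so the units differ. In ASNS the match began 68 bases before 1 of its 2 RefSeq starts. The single match at MTHFD1L lay 129 or 90 bases before 2 of its starts and 24 bases after another. In both genes these starts and matches lie inside the gene bounds given below, not upstream of them. CCAAT was found in 34.6% of all windows and at least 3 times in 3.26%. PSAT1 carried 3, beginning 113, 83 and 52 bases before its start, SHMT1 and MTHFD2 carried 2 each, PHGDH and MTHFD1L 1 each, and ALDH18A1 and ASNS none. PSAT1 and SHMT1 are printed because both carry more than 1 box and yet lay at opposite ends of the level order of the tested enzymes.

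The level order ran from PSAT1 with a mean of 217 FPKM over the 9 libraries to ASNS with 0.570 FPKM. It is only a rough order between genes, since FPKM divides by all annotated exon bases, 2188 for PSAT1 and 9217 for PHGDH. Reads per library spanned similar ranges in both, 2087 to 11665 for PSAT1 and 2705 to 11494 for PHGDH. PSAT1 ranked 167th of all genes. SHMT2 followed with 88.1 FPKM, then ALDH18A1 with 45.4, MTHFD2 with 45.2, PYCR1 with 44.0, PHGDH with 34.4, PSPH with 19.2, MTHFD1L with 17.2 and SHMT1 with 12.6. The ranges of neighbours in this order overlapped, other than those of SHMT1 and ASNS. PSAT1 was the highest of the 10 in each library but R213A 1, where SHMT2 was, and ASNS was the lowest in each library. The plot of levels by library shows all values.

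**Figure D1:**
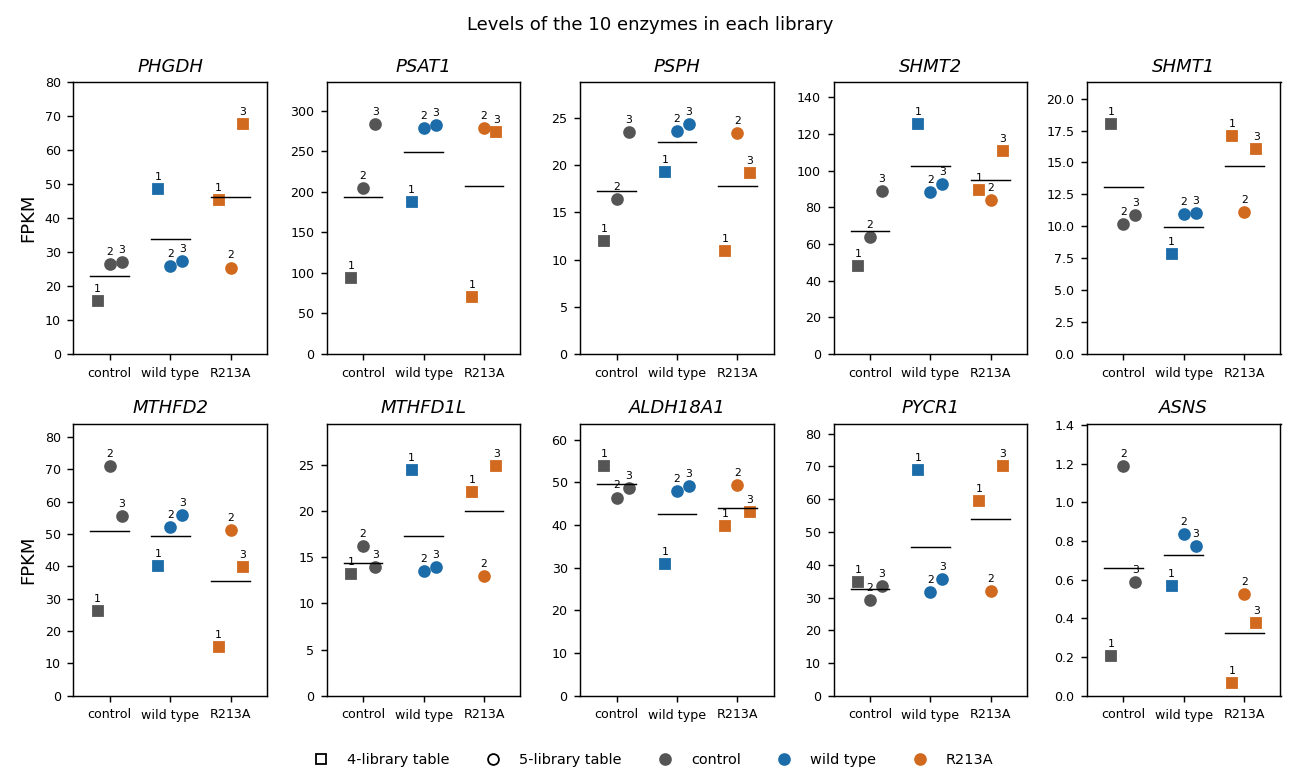
FPKM of each enzyme (vertical axis, from 0) in the 9 libraries, grouped by matrix on the horizontal axis. Numbers are replicates, squares the 4-library table, circles the 5-library table and bars the mean of 3 libraries. The squares spread widely, for PSAT1 from 70.3 to 274 FPKM, while most circles lie close together.

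Among the serine enzymes, PHGDH (ENSG00000092621, hg38 chromosome 1, 119648411 to 119744226, plus strand), which catalyses the first step, spread most between groups. It measured 15.7 FPKM in control 1, 48.7 in wild type 1, 45.2 in R213A 1 and 67.8 in R213A 3. In the 5-library table it measured 26.5 and 27.2 in controls 2 and 3, 25.8 and 27.3 in wild types 2 and 3, and 25.5 in R213A 2. In the 4-library table each CPXM2 library was thus above the control, by 2.89- to 4.33-fold, whereas the 5-library table held all groups between 25.5 and 27.3 FPKM. Over both tables the groups overlapped, with means of 23.1 ± 6.47 on control, 33.9 ± 12.8 on wild-type and 46.2 ± 21.2 FPKM on R213A matrix (SD, n = 3 each).

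PSAT1 (ENSG00000135069, chromosome 9, 78297143 to 78330093, plus strand), the transaminase of the second step, measured 93.2 FPKM in control 1, 187 in wild type 1, 70.3 in R213A 1 and 274 in R213A 3. In the 5-library table the controls had 205 and 284, the wild types 279 and 282 and R213A 2 279 FPKM. The libraries R213A 1 and R213A 3 carry the same label and table and differed 3.90-fold, so the lowest value of PSAT1 and the highest of the 4-library table came from the same matrix. Control 2 stood below the other libraries of its table, which lay between 279 and 284 FPKM. The group means were 194 ± 96.0, 250 ± 54.1 and 208 ± 119 FPKM (control, wild type, R213A; SD, n = 3 each).

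PSPH (ENSG00000146733, chromosome 7, 56011051 to 56051604, minus strand), the phosphatase that releases serine, measured 12.0, 19.3, 10.9 and 19.1 FPKM in control 1, wild type 1, R213A 1 and R213A 3. It measured 16.4 and 23.5 in controls 2 and 3, 23.6 and 24.4 in wild types 2 and 3 and 23.3 in R213A 2. The low libraries were therefore control 1, R213A 1 and control 2, and these, with wild type 1, were also the 4 lowest for PSAT1. PSPH has an expressed pseudogene, PSPHP1, listed at 15.3 to 39.5 FPKM, and the way reads shared by near-identical copies were counted is not given, so PSPH is uncertain. The 16 other pseudogenes named after these enzymes had at most 4 reads in any library.

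SHMT2 (ENSG00000182199, chromosome 12, 57229327 to 57234935, plus strand) and SHMT1 (ENSG00000176974, chromosome 17, 18327860 to 18363563, minus strand), the mitochondrial and cytosolic forms of the same reaction, went opposite ways in wild type 1. SHMT2 measured 48.0 FPKM in control 1, 126 in wild type 1, 89.7 in R213A 1 and 111 in R213A 3, against 64.0 and 89.0 in controls 2 and 3, 88.5 and 93.0 in wild types 2 and 3 and 84.0 in R213A 2. SHMT1 measured 18.0 in control 1, 7.86 in wild type 1, 17.1 in R213A 1 and 16.0 in R213A 3, against 10.2 and 10.9, 11.0 and 11.0, and 11.1 FPKM in the same order. SHMT2 was highest and SHMT1 lowest in wild type 1, and the reverse held for SHMT2 and SHMT1 in control 1.

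The ratio of SHMT2 to SHMT1 within a library, which does not depend on how that library was scaled, was 2.66 in control 1, 16.0 in wild type 1, 5.25 in R213A 1 and 6.91 in R213A 3. In the 5-library table it lay between 6.28 and 8.45 in all groups. The wide range therefore belonged to the 4-library table, with both R213A libraries between control 1 and wild type 1.

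MTHFD2 (ENSG00000065911, chromosome 2, 74198562 to 74217565, plus strand), a mitochondrial dehydrogenase and cyclohydrolase, measured 26.1, 40.2, 15.2 and 39.7 FPKM in control 1, wild type 1, R213A 1 and R213A 3. It measured 71.1 and 55.5 in controls 2 and 3, 52.2 and 55.9 in wild types 2 and 3 and 51.2 in R213A 2. Here control 2 was the highest library, whereas it was low for PSAT1 and PSPH. MTHFD1L (ENSG00000120254, chromosome 6, 150865549 to 151101887, plus strand), which releases formate in the next step, measured 13.2, 24.4, 22.0 and 24.9, then 16.2 and 13.9, 13.5 and 13.9, and 13.0 FPKM in the same order. The ratio of MTHFD2 to MTHFD1L was 1.98 in control 1, 1.65 in wild type 1, 0.691 in R213A 1 and 1.60 in R213A 3, and 3.87 to 4.40 in the 5-library table. The tables did not overlap in this ratio, nor in that of PSAT1 to PHGDH, which was 5.96, 3.85, 1.55 and 4.05 in the 4-library table and 7.76 to 11.0 in the other. A ratio between tables is a description only, since the tables were not tested against each other.

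**Figure D2:**
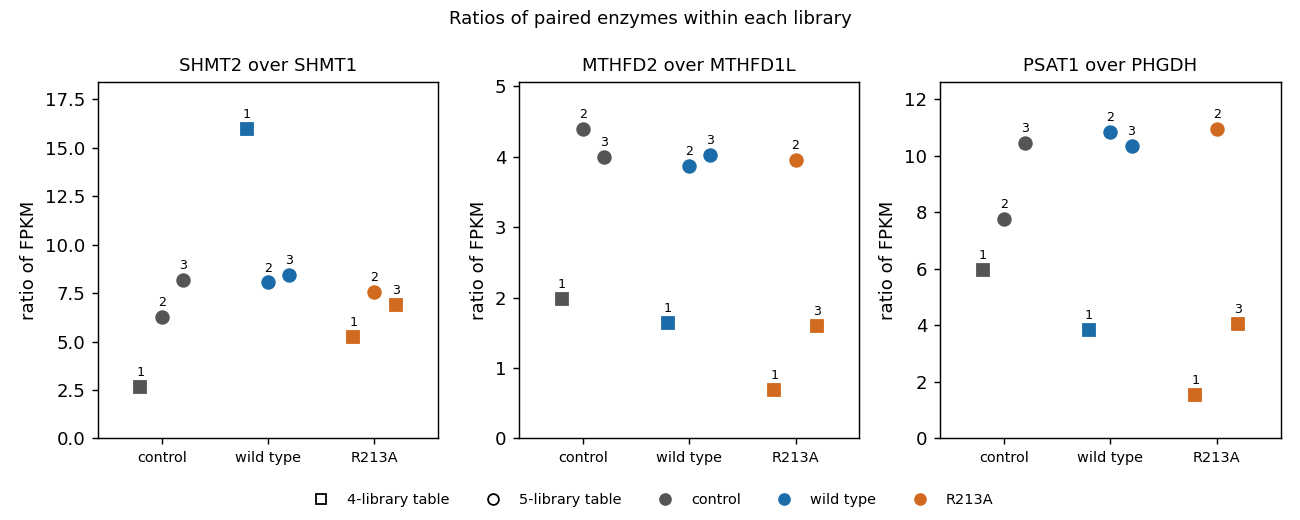
Ratio of FPKM of paired enzymes (vertical axes, from 0) in each library, by matrix. Squares mark the 4-library table, circles the 5-library table, and numbers are replicates. Wild type 1 stands at 16.0 for SHMT2 over SHMT1, and circles stay above squares for the ratios of MTHFD2 and PSAT1.

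ALDH18A1 (ENSG00000059573, chromosome 10, 95605929 to 95656706, minus strand), which starts proline synthesis, measured 53.9 FPKM in control 1, 30.9 in wild type 1, 39.7 in R213A 1 and 43.0 in R213A 3. In the other table it stayed between 46.4 and 49.4 FPKM. PYCR1 (ENSG00000183010, chromosome 17, 81932384 to 81942412, minus strand), the mitochondrial reductase that ends the pathway, measured 34.7, 69.0, 59.5 and 70.2, then 29.2 and 33.5, 31.7 and 35.8, and 32.1 FPKM. In the 4-library table the first enzyme of proline synthesis was highest and the last was lowest in the control, and PYCR1 over ALDH18A1 was 0.645 in control 1 and 1.50 to 2.23 in the 3 CPXM2 libraries. The same ratio was 0.630 to 0.729 in the 5-library table, with no separation of the groups. PYCR1 shares 14.1% of its exon bases with MYADML2 on the same strand and SHMT1 1.00% with a microRNA gene, and neither shares coding bases.

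ASNS (ENSG00000070669, chromosome 7, 97852118 to 97872542, minus strand), which makes asparagine, was listed at 0.204 FPKM in control 1, 0.569 in wild type 1, 0.0662 in R213A 1 and 0.378 in R213A 3. In the 5-library table it was listed at 1.19 and 0.589 in controls 2 and 3, 0.838 and 0.773 in wild types 2 and 3 and 0.527 in R213A 2. These values rest on 4 to 87 reads per library, with an exact 95% Poisson interval of 0.0180 to 0.169 FPKM in R213A 1 and 0.953 to 1.47 in control 2, for counting error only. The 3 wild-type libraries lay above the 3 R213A libraries, with 0.527 FPKM as the highest R213A and 0.569 as the lowest wild-type value, whose intervals overlap. These groups did not overlap for 3.35% of the genes that passed the filter given below. ASNS was lower in the 4-library table, at 0.0662 to 0.569 against 0.527 to 1.19 FPKM. That table holds R213A 1 and 3 but only wild type 1. ASNS did not pass the filter on low values and was not tested.

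How well the ASNS entry measures its transcript is uncertain. The 58735 listed gene lengths equal the exon lengths of GENCODE release 29, and in that annotation 1985 of 4455 exon bases and 1683 of 1752 coding bases of ASNS (96.1%) also belong to AC079781.5, a processed transcript on the same strand (chromosome 7, 97851688 to 97972985). AC079781.5 itself had 3 to 24 reads. Over the protein-coding genes, a mean of at least 1 FPKM was reached by 51.3% of 16526 genes that share no exon base on their strand, 57.3% of 2517 that share up to 50%, 9.70% of 433 that share more than 50% up to 90%, and none of 475 that share more. ASNS belongs to the second class, with 44.6% of its exon bases shared. Over its unshared bases alone its reads would come to 0.119 to 2.15 FPKM. SLC25A32, the mitochondrial folate carrier, and AMT of glycine cleavage share 69.7% and 63.1% of their exon bases and had means of 0.0786 and 0.0151 FPKM. The sources used here do not give how shared bases were counted, and the part of that counting in these low values was not tested.

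**Figure D3:**
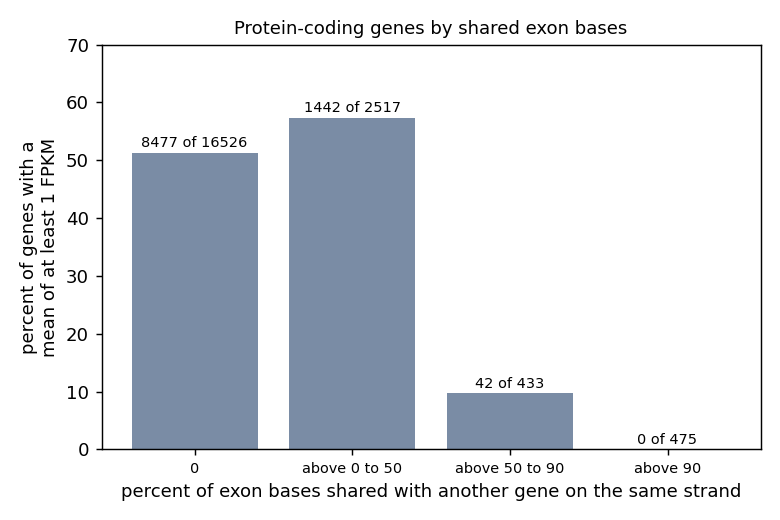
Percent of protein-coding genes whose mean reached 1 FPKM (vertical axis, from 0) by the percent of their exon bases that belong to another gene on the same strand (horizontal axis). Counts stand above the bars. The share is 51.3% with no shared base, 57.3% up to 50%, 9.70% above 50% to 90% and 0 of 475 genes above 90%.

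Wild-type and control matrix were compared first. The 9 enzymes other than ASNS passed the filter of a mean of at least 1 FPKM, as did 11193 genes in all. With limma on log2(FPKM + 1) and the table as a term, 0 of the 9 passed an adjusted p of 0.05, against 0% of all genes. At an unadjusted p under 0.05 it was 1 of 9, against 4.49% (503) of all genes. That enzyme was SHMT2, higher on wild-type matrix by 0.63 ± 0.27 on the log2 scale (SE; unadjusted p = 0.0422, limma adjusted p = 0.757). PHGDH was higher by 0.51 ± 0.36, PSAT1 by 0.48 ± 0.43, PSPH by 0.40, PYCR1 by 0.39, MTHFD1L by 0.20 and MTHFD2 by 0.06, while ALDH18A1 differed by -0.24 and SHMT1 by -0.33. In all, 7 of 9 differences were above 0, against 46.3% of all genes, with a median of 0.39 against -0.03. Without control 1 the count was 4 of 9 with a median of -0.035, and without wild type 1 it was 7 of 9 with a median of 0.244.

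For R213A against control matrix, 0 of 9 enzymes passed with limma, against 0% of all genes, and 0 of 9 at an unadjusted p under 0.05, against 3.05% (341). PHGDH differed most, by 0.77 ± 0.37 (SE; 95% interval -0.07 to 1.60, limma adjusted p = 0.690). SHMT2 followed with 0.52, PYCR1 with 0.41, PSAT1 with 0.32, MTHFD1L with 0.24, PSPH with 0.21 and SHMT1 with 0.09, while ALDH18A1 stood at -0.09 and MTHFD2 at -0.26. Again 7 of 9 were above 0, against 48.1% of all genes, with a median of 0.24 against -0.02. The median was 0.068 without control 1, 0.075 without R213A 3 and 0.395 without R213A 1. Both comparisons use the same control libraries, so their likeness is no second observation.

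Between wild-type and R213A matrix, 0 of 9 passed with limma, against 0% of all genes, and 0 of 9 at an unadjusted p under 0.05, against 1.05% (117). The differences ran from -0.43 ± 0.25 for SHMT1 (SE; 95% interval -0.99 to 0.14, limma adjusted p = 0.996) to 0.32 ± 0.34 for MTHFD2, with 4 of 9 above 0 against 48.5% of all genes. That count was 2 without R213A 1, 3 without R213A 2 and 6 without control 1, wild type 2 or R213A 3. SHMT1 was the only one of the 9 whose wild-type libraries (7.86 to 11.0 FPKM) did not overlap the R213A libraries (11.1 to 17.1 FPKM), against 3.35% of all genes, with wild type 3 at 11.0 and R213A 2 at 11.1 FPKM as the nearest values. In the comparisons with control 0 of 9 were without overlap, against 4.57% for wild type and 3.95% for R213A. The widest interval was that of PSAT1, from -0.86 to 1.17, so before adjustment these libraries leave differences of either sign within it possible.

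**Figure D4:**
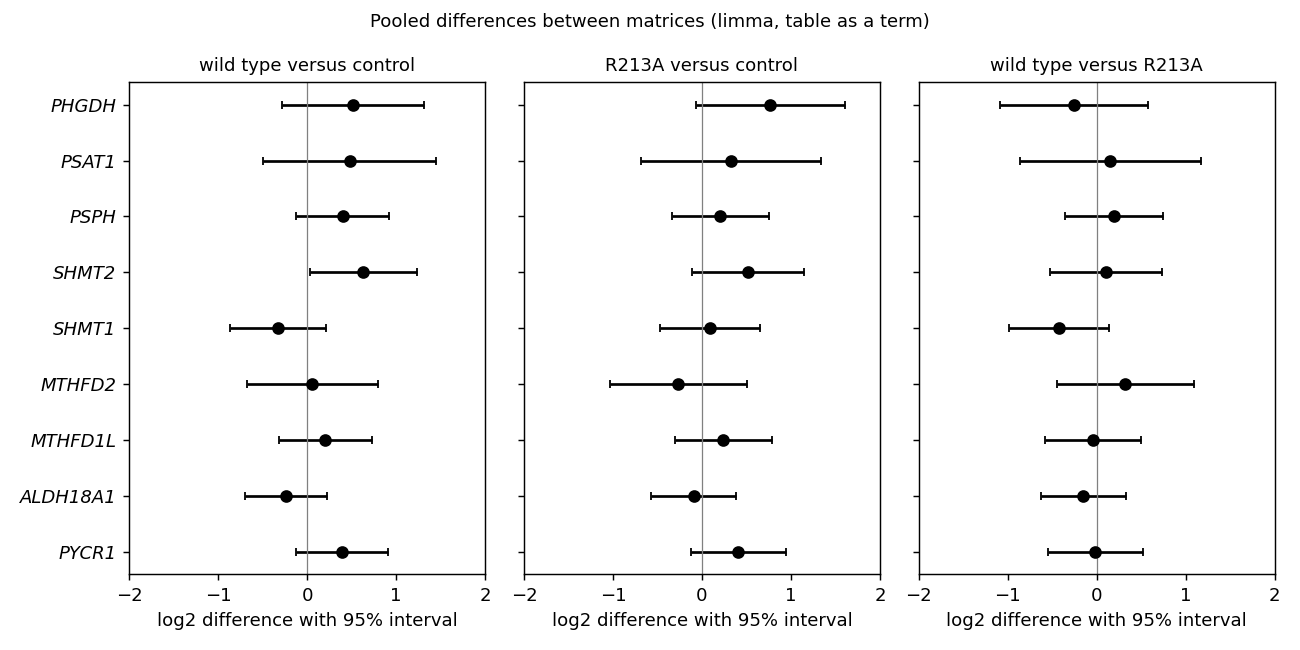
Difference of log2(FPKM + 1) between matrices for the 9 tested enzymes (horizontal axes), with 95% intervals from limma over all 9 libraries and the table as a term. The interval of SHMT2 for wild type versus control lies above 0 before adjustment, and all other intervals cross 0.

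The pooled values joined unlike tables. In the 4-library table wild type 1 exceeded control 1 by 1.58 for PHGDH, 1.37 for SHMT2, 1.00 for PSAT1, 0.97 for PYCR1, 0.84 for MTHFD1L, 0.64 for PSPH and 0.60 for MTHFD2 on the log2(FPKM + 1) scale, with -0.78 for ALDH18A1 and -1.10 for SHMT1. In the 5-library table the same differences lay between -0.21 for MTHFD2 and 0.28 for PSPH, and without control 2 none was larger than 0.04 in size. Raw FPKM in wild type 1 and control 1 stood at least 2-fold apart for 4 of 9 enzymes, namely PHGDH, SHMT2, SHMT1 and PSAT1, against 26.9% of all genes. Wild type 2 and control 3 did so for 0 of 9, against 1.72%, and R213A 3 and R213A 1, of the same matrix, for PSAT1 and MTHFD2, against 10.3%.

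A test of whether the difference between wild type and control itself differed between the tables called 0 of 9 enzymes at an adjusted p of 0.05 (limma, 3 residual degrees of freedom), against 1.12% (125) of all genes. The lone libraries of the 4-library table are assumed there to vary like the pairs. PHGDH and SHMT1 came nearest, with 1.59 ± 0.40 and -1.16 ± 0.30 (SE; limma adjusted p = 0.0961 and 0.0987). At an unadjusted p under 0.05 it was 6 of 9 (PHGDH, SHMT1, MTHFD1L, SHMT2, ALDH18A1 and PYCR1), against 20.7% of all genes. For R213A against control 3 of 9 passed unadjusted, against 12.4%, and for wild type against R213A 1 of 9, against 7.25%, with 0 of 9 after adjustment in both. The differences had the same sign in both tables for 4 of 9 enzymes in the comparison of wild type with control, against 51.4% of all genes.

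**Figure D5:**
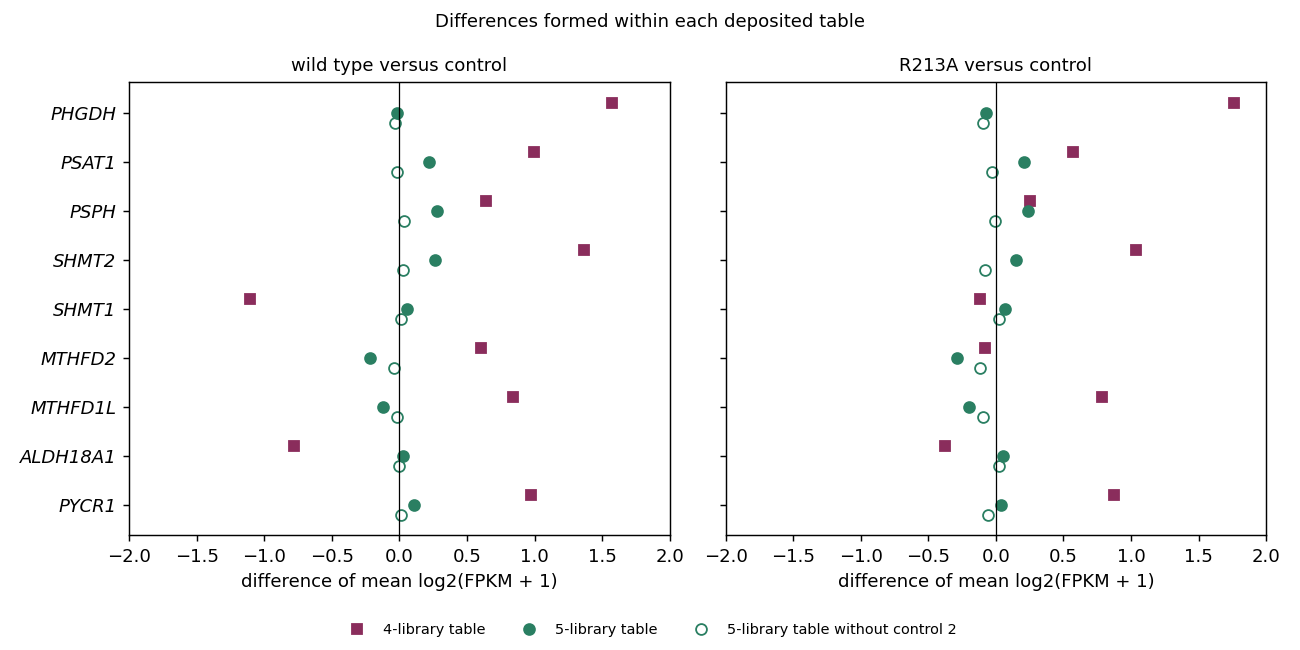
Difference of mean log2(FPKM + 1) from control (horizontal axes) for the 9 tested enzymes, formed in the 4-library table (squares), the 5-library table (filled circles) and the latter without control 2 (open circles). Squares reach 1.58 for PHGDH on wild-type matrix, while open circles lie within 0.12 of 0.

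The mitochondrial transcripts, which can vary with RNA quality, were described by group as well. With limma 0 of 13 passed an adjusted p of 0.05 in any comparison, against 0% of all genes. Their pooled medians were -0.19 for wild type and -0.08 for R213A against control, and -0.12 for wild type against R213A. Of the 13 protein-coding transcripts of the mitochondrial genome, 0 were higher in wild type 1 than in control 1, with a median of -0.80, and 8 of 13 were higher on wild-type matrix within the 5-library table, with a median of 0.22. Without control 2 the latter was 1 of 13, with a median of -0.20, so the direction was then the same in both tables. MT-ND4L had 244 FPKM in wild type 1 against 881 in control 1. All mitochondrial transcripts together took 1.81% to 2.38% of the reads over the 9 libraries. Their part in the differences of the enzymes was not tested. In these bulk samples fewer cells of a kind and less RNA per cell cannot be told apart.

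The counts of every list stand against all 11193 genes tested, of which 0% passed adjustment in each comparison. Above 0 were 46.3% for wild type versus control, 48.1% for R213A versus control and 48.5% for wild type versus R213A. Within tables, wild type exceeded control for 5146 of them (4 libraries, median -0.07) and 5335 (5 libraries, median -0.01). Other genes of the folate cycle were described beside the enzymes. Of 18 listed, 14 were tested and 0 passed an adjusted p of 0.05 with limma in any comparison; 4 of 14 were higher on wild-type than on control matrix, with a median of -0.19. Between wild type 1 and control 1 the median was -0.76, while the 5-library table had 8 of 14 higher and a median of 0.002. TYMS, which makes thymidylate, differed by -0.73 ± 0.39. ALDH1L2, the mitochondrial enzyme that oxidises formyl-folate, differed by 0.45 ± 0.25 (SE; limma adjusted p = 0.757 for each). MTHFD1, the cytosolic counterpart of MTHFD2 and MTHFD1L, measured 25.5 FPKM in control 1 and 10.5 in wild type 1, and 17.8 to 19.6 in the 5-library table. For R213A against control 6 of 14 were higher, with MTRR at -0.38 and MAT2B at -0.35, and for wild type against R213A 6 of 14, with SLC19A1, the folate carrier, at -0.47 and TYMS at -0.64. MTHFD2L, the close relative of MTHFD2, had a mean of 0.742 FPKM and was not tested.

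Of 14 enzymes and carriers that use serine or glycine, 12 were tested and 0 passed after adjustment with limma. SDSL, a serine dehydratase homologue, differed by 1.44 ± 0.60 between wild-type and control matrix (SE; unadjusted p = 0.0377). It had 1.16 FPKM in control 1, 31.1 in wild type 1, 4.59 and 5.99 in the R213A libraries of that table, and 0.220 to 0.723 FPKM in all libraries of the 5-library table. CBS, which joins serine to homocysteine, differed by 0.69 ± 0.29, and GLDC of the glycine cleavage system by -0.57 ± 0.21. The list as a whole had 4 of 12 higher, with a median of -0.17. For R213A against control 5 of 12 were higher, with SDSL at 0.65, SPTLC1 at -0.32 and the pseudogene PSPHP1 at 0.27, and for wild type against R213A 4 of 12, with SDSL at 0.79, CBS at 0.59 and CTH, which makes cysteine, at 0.45.

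Of 18 other genes of asparagine, glutamate, proline and arginine, 14 were tested and 0 passed after adjustment with limma. On wild-type against control matrix 8 of 14 were higher with a median of 0.17, led by ASS1 of arginine synthesis at 0.64 ± 0.49, GOT1, which makes aspartate, at 0.50 ± 0.34 and GPT2 at 0.49 ± 0.26. Within each table, though, 6 of 14 were higher, with medians of -0.15 (4 libraries) and -0.02 (5 libraries). ASS1 and GOT1 stood at 2.65 and 1.71 in the 4-library table and at -0.37 and -0.10 in the other. On R213A against control 9 of 14 were higher, with PYCR3 at 0.72 ± 0.32 and ALDH4A1 at 0.44 ± 0.29. PYCR3 is a paralogue of PYCR1 and was at 14.0 to 38.9 FPKM in the 4-library table and 1.52 to 4.03 in the other. Between wild type and R213A 7 of 14 were higher, with ASS1 at 0.57, GOT1 at 0.45 and PYCR3 at -0.44.

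The ATF4 list held ATF4, the kinases above it and stress targets other than the enzymes. Of 16 genes 15 were tested, and 0 passed after adjustment with limma. Wild type 1 exceeded control 1 for 11 of 15 with a median of 1.65, and 6 of 15 were higher within the 5-library table, with a median of -0.06. DDIT4, an inhibitor of mTORC1, was at 1.48 FPKM in control 1, 135 in wild type 1, 3.15 in R213A 1 and 47.6 in R213A 3, and at 59.2 to 72.8 in the 5-library table. Its pooled difference between wild type and control was 1.93 ± 1.11, beside 1.71 ± 0.84 for CHAC1 and 1.57 ± 0.77 for TRIB3. In R213A against control CHAC1 stood at 0.87, DDIT4 at 0.66 and TRIB3 at 0.37, with 7 of 15 higher. In wild type against R213A 14 of 15 were higher with a median of 0.59, against 48.5% of all genes with a median of -0.01. DDIT4 stood at 1.27, TRIB3 at 1.19 and DDIT3 at 1.10 there. The 4-library table had a median of 1.33. The other had 0.04 with 9 of 15 higher, and there DDIT3 stood at -0.03 and TRIB3 at 0.06. R213A 1 and control 1, low in DDIT4, were also the lowest libraries for PSAT1, PSPH, MTHFD2 and ASNS, but not for the other enzymes. Control 1 was the highest library for SHMT1 and ALDH18A1. R213A 1 lay well above control 1 for PHGDH, SHMT2, MTHFD1L and PYCR1. ATF4 itself stood at 1.04 for R213A against control in the 4-library table and at -0.37 in the other. A link between these levels was not tested.

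Likeness between genes was described as the root mean square distance of log2(FPKM + 1), centred within each table, over the 9 libraries. Among the enzymes SHMT2 and PYCR1 (0.131), MTHFD1L and PYCR1 (0.133) and SHMT1 and ALDH18A1 (0.166) were nearest. Of 11184 other genes that passed the filter, EIF4EBP1 (0.205), CDC42EP1 (0.221), SLC43A1 (0.226), NT5M (0.226) and RNU5B-2P (0.227) were nearest to PHGDH. For ASNS they were HECTD3 (0.0569), CLTCL1, ZFAND6, CROCCP2 and EIF3M (0.0763). Genes of small spread lie near each other on this measure, which is the case for ASNS at its low level.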

How the data were processed

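RNA was extracted with TRIzol and about 500 ng made into libraries with a TruSeq stranded mRNA kit, per the labels' protocols. The build hg38 and the converter bcl2fastq are named per the submitters' processing notes. Aligner, counting program and strand setting: not given in the sources used here. The deposited values are FPKM per gene, and the deposited tables also list each gene's length, another column used here to recover reads as FPKM times length, which came out whole for 100% of values within 0.01. The 11193 genes whose mean reached 1 FPKM were fitted on log2(FPKM + 1) in limma 3.58.1 under R 4.3.3, with group and table as terms (5 residual degrees of freedom), Benjamini-Hochberg adjustment over all of them and a threshold of 0.05. This scale understates the change of low genes.

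The members and gene lists were chosen with earlier results of these data known. Each member is named. Of the other lists, a gene is named if it passed the threshold, was among the 3 of largest difference in a comparison, or is a paralogue or pseudogene of a member; genes that illustrate shared exons, the ATF4 list and the library pairs were named after their values were seen. A few genes that this rule would name are not reported here. On simulated data for wild type versus control with 11193 genes, 29 of 50 genes changed by a log2 of 1 were recovered, 45 of 50 at 2, 50 of 50 at 3 and at 4, with 4 of 10993 unchanged genes called. The measured spread was unequal. Over all groups the SD of PHGDH was 48.6% of its mean where 4 libraries were deposited together, but 3.10% where 5 were. For PSAT1 these values were 59.9% and 12.8%. Whether the simulated rates hold under such unequal spread was not tested. The alternatives changed the pseudocount, filter, scaling, table term, replicate block, groups fitted, method (limma-voom) and each library in turn. The 5-library difference without control 2 was added after seeing the data.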

Additional observations from a re-analysis of the deposited data

Results flagged for a closer look

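The difference between wild-type and control matrix differed between the deposited tables, at a limma adjusted p under 0.05, for 5 of the 68 tested genes of the lists beside the enzymes, against 1.12% (125) of all genes. In each it was larger in the 4-library table, by a log2 of 4.62 for TRIB3, 2.50 for PPP1R15A, 4.83 for DDIT3, 3.69 for SDSL and 3.01 for ASS1 (limma adjusted p = 0.0402, 0.0402, 0.0464, 0.0323 and 0.0393). The 4-library side of each rests on wild type 1 and control 1 alone. Without control 2 the limma adjusted p of the 5 genes lay between 0.0998 and 0.111, with differences of 4.60, 2.44, 4.20, 3.72 and 2.87. With limma-voom on recovered reads it lay between 0.0241 and 0.0326.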

How the results depend on the processing

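The 9 enzymes gave 513 log2 differences over 19 alternatives and 3 comparisons. Of these 481 kept their direction, and the smallest limma adjusted p was 0.364. Of 32 that changed sign, 23 left out a library and 9 did not. For R213A versus control, PSAT1 was -0.004 without the table term and -0.10 with the replicate block, and SHMT1 -0.024 with only the 2 groups compared. For wild type versus R213A, MTHFD1L was 0.055 under quantile scaling, 0.051 with the replicate block and 0.067 with only the 2 groups, and PYCR1 was 0.127, 0.022 and 0.080. Leaving out each library in turn, wild type versus control ranged from -0.056 to 0.73 for PHGDH, -0.46 to 0.025 for SHMT1, -0.18 to 0.22 for MTHFD2 and -0.12 to 0.38 for MTHFD1L. R213A versus control ranged from -0.12 to 0.77 for PSAT1, -0.024 to 0.39 for SHMT1, -0.55 to 0.058 for MTHFD2, -0.19 to 0.46 for MTHFD1L and -0.17 to 0.18 for ALDH18A1. Wild type versus R213A ranged from -0.29 to 0.60 for PSAT1, -0.60 to 0.048 for SHMT1, -0.19 to 0.22 for SHMT2, -0.26 to 0.067 for MTHFD1L, -0.22 to 0.12 for ALDH18A1 and -0.21 to 0.08 for PYCR1. Most of the sign changes on leaving out a library came without control 1 or wild type 1.

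Genes called stayed at 0, with the replicate block too, except without a filter, with 1 for each CPXM2 matrix versus control. The 125 genes whose difference between wild type and control differed between the tables became 1655 without a filter, 297 under quantile scaling, 276 with limma-voom and 0 to 365 leaving out a library: 0 without control 2, 196 without control 3, 23 and 35 without wild type 2 or 3, and 365 and 355 without R213A 1 or 3. The same counts without a filter were 1171 for R213A versus control and 1262 for wild type versus R213A, with 0 to 3 for the latter leaving out a library. The cause was not tested. This test gave no value for comparisons whose only library in a table was left out. For PHGDH the limma-voom adjusted p was 0.0557. Same-numbered libraries correlated in their deviations from the group means at -0.70 to 0.84, above 0.1 in 7 of 9 pairs. With the table also fitted this was -0.76 to -0.06, above 0.1 in 0 of 9. R213A 3, deposited apart from control 3 and wild type 3, gave the values of -0.65 and -0.70 with them before that. Deviations left after fitting group and table must sum to 0 within each group and each table. That alone pulls most of the later correlations below 0, so they cannot decide whether libraries were paired. All libraries numbered 1 share a table, as do all numbered 2, so number and table cannot be told apart there. The numbers were not taken to pair the libraries. With 3 libraries per group, 1 library can set a group's mean.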
